A study of Homo sapiens with 8 samples.

Results

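The comparison described here sets T47D cells carrying the truncated GATA3 form TR2 against T47D cells carrying wild-type GATA3, across all genes measured in both. It was drawn from a table of 8 RNA-seq libraries by taking the 2 TR2 and the 2 wild-type libraries, 4 libraries in all. A gene was included where its normalized count reached at least 10 in at least 2 of the 8 libraries, which left 14881 of 28859 genes. T47D is an established luminal, hormone-receptor-positive human breast cancer line. All groups were this line and differed in the plasmid it carried: HA_GATA3_wt (wild-type GATA3 with an HA epitope tag), HA_GATA3_TR1 or HA_GATA3_TR2 (HA-tagged truncated variants), or EV, labelled as a control plasmid, with 2 libraries in each of the 4 groups. The promoter of the plasmid, the positions at which TR1 and TR2 are truncated, and whether the cells were pools or single clones are not given in the sources used here. The labels do not say that the line's own GATA3 gene was altered, and a count per gene does not separate its transcripts from those of a plasmid.

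GATA3 is a zinc-finger transcription factor that binds GATA motifs and acts with FOXA1 and the estrogen receptor to maintain the luminal identity of breast epithelium. Truncating mutations of GATA3 recur in breast cancers and can remove part of the DNA-binding zinc-finger region or of the sequence that follows it. The title of the study asks about reprogramming of GATA3 binding and a change toward a mesenchymal state, so the markers of these states are given below with the rest.

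Values are normalized counts per library, turned back from the deposited log2 scale, and fold changes are differences of log2(normalized count + 1) between TR2 and wild type, with their standard error (SE). The added 1 moves differences of genes with low counts, and for a gene at 0 reads in a group the fitted difference depends on it and is no bound, so a bound from reads is given where such a gene is named. A gene is called higher or lower where the adjusted p of limma with a mean-variance trend, fitted to the 4 libraries with Benjamini-Hochberg adjustment across the 14881 genes, was under 0.05. Nothing in the labels says whether the replicates came from separate cultures, so these p-values measure only the spread between the libraries. That spread came mostly from the trend over other genes and little from a gene's own libraries. The fit had 25.8 prior and 2 residual degrees of freedom. RNA was bulk, and fewer cells of a type and less RNA per cell cannot be told apart.

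The 4 libraries held 14115695 to 18154045 reads on genes, and all 8 held 13292861 to 19572394. Replicates of wild type and of TR2 lay close together, with an SD of the log2 replicate difference of 0.119 and 0.133 over 10424 genes with a mean of at least 100. The same SD was 0.169 for the control and 0.383 for TR1, which is why the spread was estimated from the 4 libraries compared. The 10 luminal epithelial markers all passed the filter. No leukocyte marker exceeded 3 reads in any library, COL1A2 was at 0 in all 8, and LUM was at 0 in the wild-type and TR2 libraries, where the summed fibroblast markers reached 45.6 to 69.6 normalized counts, mostly from COL6A3. Mitochondrially encoded genes took 7.45% and 7.56% of the wild-type libraries and 8.42% and 7.84% of the TR2 libraries. On a list of 15 mitochondrial and nuclear RNA quality genes, 6 were higher with TR2 and 0 lower by limma, against 10.4% and 9.6% of all genes, with 8 higher and 1 lower at an unadjusted p under 0.05 and 8 higher and 1 lower by limma voom on recovered reads. The list's median log2 difference was 0.12, but 0 under quantile normalization, with 4 higher and 3 lower, and 0.03 after removal of a length and GC trend, with 3 and 1. Median centring left 3 calls higher and 0 lower, with 5 higher and 1 lower at an unadjusted p under 0.05. Without wild-type replicate 1 the list had 2 calls higher and without replicate 2 it had 1, while without TR2 replicate 1 it had 7 higher and 3 lower and without TR2 replicate 2 it had 9 higher. In the fit of all 8 libraries it had 0 calls by limma, with 3 higher and 0 lower at an unadjusted p under 0.05, and it had 0 without the trend (4 and 0) and without the filter (2 and 0). The part of these values in the results below was not tested.

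TR2 differed from wild type in 2971 genes, or 20% of those tested, with 1542 higher (10.4%) and 1429 lower (9.6%). Most of the differences were small, since 2120 of the calls (71.4%) were under 1.5-fold and the median size among called genes was 0.37 on the log2 scale. At least 2-fold, 241 genes were higher (1.62%) and 178 lower (1.2%), 419 in all (2.82%), and at least 4-fold 59 were higher and 40 lower. The median difference over all tested genes was 0.01. The libraries of the groups did not overlap for 8734 genes (58.7%), among them 2969 of those called. When all 8 libraries shared an estimate of the spread, 780 genes were called (5.24%), of which 777 were also called from the 4. Leaving out wild-type replicate 2, the shallowest of the 4, left 1694 calls.

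**Figure D1:**
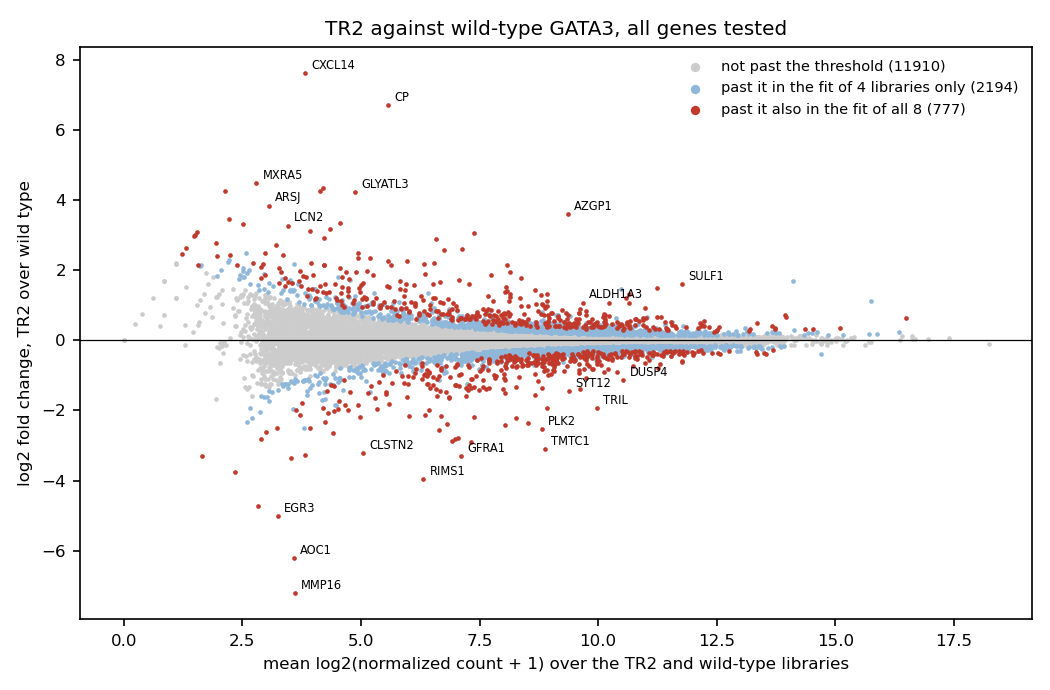
Each point is 1 of the 14881 tested genes, with the mean log2(normalized count + 1) of the 4 libraries on the horizontal axis and the log2 fold change of TR2 over wild type on the vertical axis. Coloured points are the 1542 genes called higher and the 1429 called lower by limma at an adjusted p under 0.05. Red marks the 777 also called in the fit of all 8 libraries, and blue those called only in the fit of the 4. Grey points were not called, and direction is read from the vertical axis. The largest differences lie at low to middle counts and the median of all genes lies at 0.01.

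The individual genes named below were tested under 16 alternatives. Of 148 named calls, 44 were made under all of them, 102 were not made when no filter on low counts was applied, 80 were not made without the mean-variance trend, and 51 were not made in the fit of all 8 libraries. A gene said below to have held was called in the same direction under each of the 16 in which it was tested, since a filter at 100 normalized counts leaves out genes with lower counts. In the reported fit, and in those of the 16 named for this at the end, a gene's own replicate spread had little or no weight. For the other genes the alternatives that ended the call are named. The largest and the abundant changes were chosen as called in the fits of the 4 and of all 8 libraries, so that for them the fit of all 8 could not end the call.

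GATA3 itself (ENSG00000107485, chromosome 10, 8045378 to 8075203, plus strand) stood at 13555 and 13833 normalized counts with wild type and 10235 and 10588 with TR2. The control libraries had 13726 and 12676 and the TR1 libraries 9506 and 8638. Total GATA3 RNA was therefore lower in both TR2 libraries than in any wild-type or control library, and the wild-type and control ranges lay close together. The log2 difference between TR2 and wild type was -0.40 ± 0.05 (SE, n = 2 libraries each; limma adjusted p = 7.16e-07, and 0.0104 in the fit of all 8). It was not called without the trend (0.0692) or without the filter (0.0655). The count does not check which form of the protein a library held.

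The 12 largest rises and falls described here are those among genes with a mean of at least 20 normalized counts in the higher group, called in both of these fits, with libraries of the groups not overlapping. A ranking by fold change with a minimum count in the higher group only favours genes near 0 in the other group, for rises and falls alike. These rises, apart from that of AZGP1, were in genes with few or no reads in the wild-type libraries, and secreted products were among them. CXCL14, an epithelial chemokine (ENSG00000145824, chromosome 5, 135570679 to 135579279, minus strand), had 0 and 0 reads in the wild-type libraries and 226 and 207 reads with TR2, or 203 and 192 normalized counts. Against a floor of 3 reads per library it was at least 62.6-fold higher with TR2 (adjusted p = 7.62e-16). The control libraries lay between, at 12.9 and 15.8, and the TR1 libraries were highest, at 2283 and 1997. CP, which encodes the copper-carrying ferroxidase ceruloplasmin, rose from 2.89 and 4.57 normalized counts with wild type to 451 and 532 with TR2, a log2 difference of 6.72 ± 0.22 (adjusted p = 2.99e-19). Its control values were 74.1 and 68.3, again between the GATA3 groups. AZGP1, the secreted zinc-alpha-2-glycoprotein (ENSG00000160862, chromosome 7, 99966720 to 99976157, minus strand), was the most abundant of the large rises, with 192 and 184 against 2269.8 and 2318 normalized counts, 12.2-fold (adjusted p = 1.67e-24). The control libraries, at 275 and 261, were nearer to wild type for AZGP1, and the TR1 libraries reached 5768 and 5255.

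CXCL14, CP and AZGP1 held, and so did 3 more of these 12 rises. GLYATL3, a glycine N-acyltransferase-like gene, had 4.82 and 6.85 normalized counts with wild type, 39.7 and 50.0 in the control, 117 and 135 with TR2 and 497 and 465 with TR1, so that each TR2 library lay above every wild-type and control library. PLEKHS1, a pleckstrin homology domain gene, had 3.85 and 2.28 against 76.4 and 75.2 (log2 difference 4.27 ± 0.33). RARB, the retinoic acid receptor beta and itself a classical target of retinoic acid, had 5.78 and 5.71 against 58.4 and 62.2, a rise of 3.18 ± 0.30 (adjusted p = 3.61e-09). The other 6 of the 12 were called under fewer alternatives. MXRA5, a matrix remodelling gene, had 0 and 1 reads with wild type and 32 and 38 with TR2, a ratio of 61.2 (95% counting interval 10.6 to 2451). PTGS1, the constitutive cyclooxygenase, had 2.89 and 5.71 against 42.2 and 45.5 normalized counts. Both calls were absent only without the filter (adjusted p = 0.104 and 0.11). The iron-siderophore binding lipocalin LCN2 (4.82 and 1.14 against 36.0 and 30.6), the fibrillar collagen gene COL27A1 (6.74 and 1.14 against 84.5 and 80.7), the arylsulfatase gene ARSJ (3.85 and 0 against 26.1 and 36.2) and the alcohol dehydrogenase gene ADH1C (3.85 and 10.3 against 70.1 and 79.8) were also called, but not without the trend or the filter. ADH1C has near-identical neighbours in ADH1A and ADH1B, so its reads may be shared with them.

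The 12 falls were in genes expressed in the wild-type libraries and at or near 0 reads, or far lower, in the TR2 libraries. MMP16, a membrane-anchored matrix metalloproteinase, had 159 and 124 reads (153 and 142 normalized counts) with wild type and 0 and 0 with TR2. It was at least 53.8-fold lower with TR2 (adjusted p = 1.06e-14). The control libraries had 3.22 and 2.44 normalized counts and the TR1 libraries 0.97 and 0.837, so the wild-type libraries were the only high ones of the 8. AOC1, the histamine-degrading diamine oxidase, had 120 and 79 reads with wild type and 0 and 1 with TR2, a ratio of wild type to TR2 of 228 (95% counting interval 40.4 to 9038). EGR3, an immediate early zinc-finger factor, had 54 and 48 against 2 and 0 reads, a ratio of wild type to TR2 of 58.4 (95% counting interval 15.7 to 488). The control libraries were also low, at 2.15 and 0 normalized counts for AOC1 and 2.15 and 2.44 for EGR3, and the calls were absent only without the filter (adjusted p = 0.0561 and 0.126).

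RIMS1, a scaffold of the presynaptic active zone (ENSG00000079841, chromosome 6, 71886703 to 72403143, plus strand), had 318 and 310.4 normalized counts with wild type and 18.9 and 19.5 with TR2, a log2 difference of -3.97 ± 0.17 (adjusted p = 4.9e-17). TMTC1, an O-mannosyltransferase of the endoplasmic reticulum (ENSG00000133687, chromosome 12, 29500840 to 29784759, minus strand), was the most abundant of the large falls, at 1399 and 1365 against 154 and 165 (log2 difference -3.11 ± 0.08, adjusted p = 1.18e-21). The control libraries lay between for both genes, at 73.0 and 64.6 for RIMS1 and 646 and 645 for TMTC1. GFRA1, the co-receptor for the neurotrophic factor GDNF, had 408 and 458 with wild type, 253 and 211 in the control and 39.6 and 47.3 with TR2. ADAMTS15, a secreted metalloproteinase, had 408 and 463 against 53.9 and 60.3, a fall of 7.63-fold. PHACTR1, a regulator of protein phosphatase 1 and actin, had 310.2 and 345 against 41.4 and 46.4. BOC, a cell-surface hedgehog co-receptor, had 348 and 325 against 44.9 and 48.3, and the calsyntenin gene CLSTN2 100.2 and 99.3 against 11.7 and 8.35. Each of these 7 genes held, with TR2 libraries below every control library for all but CLSTN2, whose control libraries (11.8 and 7.31) overlapped those of TR2. The cadherin gene CDH7 (40.5 and 32.0 against 3.60 and 1.86) and the flippase gene ATP8A2 (44.3 and 41.1 against 2.70 and 4.64) completed the 12 falls, and their calls were absent only without the filter.

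**Figure D2:**
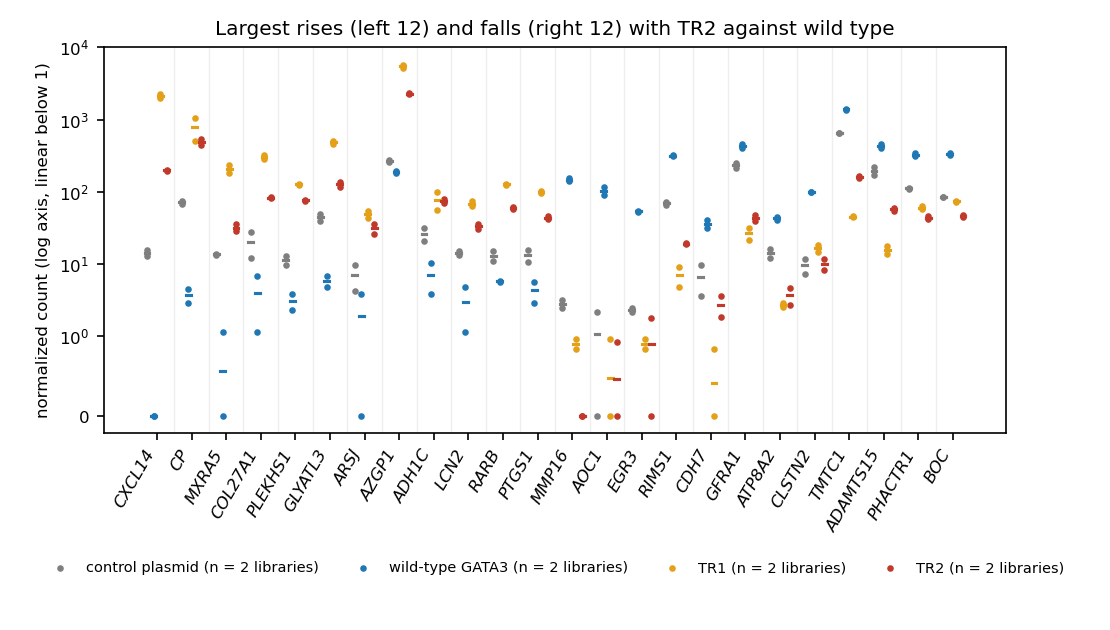
Normalized counts (log axis, linear below 1) in each of the 8 libraries for the 12 largest rises and falls of TR2 against wild type among genes with a mean of at least 20 in the higher group. Points are single libraries coloured by group, and short lines are the means of 2 libraries. Genes were chosen so that the wild-type and TR2 libraries do not overlap, and CXCL14 and MMP16 have 0 reads in 1 of the groups.

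Promoter windows of 300 bases, from 250 before to 50 after the annotated start, were taken from RefSeq (GRCh38.p14) for the genes with the largest changes, and 26 of 34 genes had one. They were searched on both strands for GATA-type hexamers, spelled AGATAA or AGATAG where the first letter is A and as TGATAA or TGATAG where it is T, which share their core letters. Of the 26 windows, 5 held at least 1 such hexamer, against 25.52% of 27305 promoters of that length in RefSeq. The windows shown are those of the largest rise and the largest fall that held and had a window, CXCL14 and RIMS1, neither of which contains a hexamer, and those of GLYATL3 and TMTC1, the genes among the held ones that contain them, with the hexamers in capitals.
CXCL14, chr5:135578942-135579241, minus strand: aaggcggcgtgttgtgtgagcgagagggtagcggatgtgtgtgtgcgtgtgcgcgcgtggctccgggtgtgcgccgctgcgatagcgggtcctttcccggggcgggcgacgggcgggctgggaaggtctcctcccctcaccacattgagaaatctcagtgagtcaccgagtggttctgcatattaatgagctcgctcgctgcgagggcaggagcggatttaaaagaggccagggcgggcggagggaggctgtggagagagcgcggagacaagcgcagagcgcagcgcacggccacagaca
RIMS1, chr6:71886300-71886599, plus strand: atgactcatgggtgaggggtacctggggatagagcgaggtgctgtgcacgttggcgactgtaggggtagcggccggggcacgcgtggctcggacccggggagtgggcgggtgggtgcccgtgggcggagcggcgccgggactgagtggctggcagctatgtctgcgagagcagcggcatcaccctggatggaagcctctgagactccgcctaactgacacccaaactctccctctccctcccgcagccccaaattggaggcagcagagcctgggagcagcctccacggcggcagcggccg
GLYATL3, chr6:49499673-49499972, plus strand: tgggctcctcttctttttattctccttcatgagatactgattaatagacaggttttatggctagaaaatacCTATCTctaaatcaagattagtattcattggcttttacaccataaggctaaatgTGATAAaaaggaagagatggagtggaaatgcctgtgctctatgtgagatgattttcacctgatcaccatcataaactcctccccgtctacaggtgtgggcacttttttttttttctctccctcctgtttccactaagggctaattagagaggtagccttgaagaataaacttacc
TMTC1, chr12:29784710-29785009, minus strand: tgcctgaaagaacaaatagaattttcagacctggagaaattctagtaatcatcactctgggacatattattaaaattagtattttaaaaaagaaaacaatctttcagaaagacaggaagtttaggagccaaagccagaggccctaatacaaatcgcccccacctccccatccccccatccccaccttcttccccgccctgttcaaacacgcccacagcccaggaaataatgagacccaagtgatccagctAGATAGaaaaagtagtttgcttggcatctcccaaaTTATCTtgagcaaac
The window of GLYATL3, which rose with TR2, holds 2 hexamers, and that of TMTC1, which fell, also holds 2. A match of letters is a description and not a binding site, and its absence here speaks only for this window.

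Among abundant genes, those with a mean of at least 1000 normalized counts in the higher group (the plot of abundant genes), the 6 largest rises and the 6 largest falls were as follows. SULF1, an extracellular sulfatase that trims heparan sulfate, had 1908 and 2045 normalized counts with wild type and 5602 and 6583 with TR2, a log2 difference of 1.62 ± 0.06. PAPSS2, which makes the sulfate donor used by sulfotransferases, had 952 and 1067 against 2384 and 2710.5. Control libraries were high for PAPSS2, at 3019 and 2585, so that wild type was the low group. AUTS2, which encodes a nuclear regulator of transcription, had 1424 and 1435 against 3984 and 4104. LMO4, a LIM-only partner of transcription factors in breast epithelium, had 1001 and 1019 against 2391 and 2328, a rise of 1.22 ± 0.06 (adjusted p = 1.55e-15). ALDH1A3, which oxidises retinal to retinoic acid, had 576 and 552 against 1129.9 and 1265. AZGP1 was the sixth rise of this set. These genes held, except PAPSS2, which was not called without the filter (0.0613).

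The 6 abundant falls held. PLK2, a serum-inducible polo-like kinase, had 1144 and 1008 normalized counts with wild type, 398 and 397 in the control and 182 and 190.2 with TR2, a log2 difference of -2.52 ± 0.09. TRIL, an accessory of Toll-like receptor signalling, had 1887 and 2033 against 520.5 and 509. SYT12, a synaptotagmin gene, had 1111 and 1109 against 424 and 391, with control libraries at 427 and 488. For PLK2, TRIL, SYT12, DUSP4 and TMTC1 the TR2 libraries lay below all wild-type and control libraries. DEGS2, which hydroxylates sphingolipids, had 1262 and 1284 against 493 and 472. DUSP4, a nuclear phosphatase of MAP kinases, had 2158 and 2228 with wild type, 1961 and 1771 in the control and 981 and 1019.8 with TR2. TMTC1, above, was the sixth.

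**Figure D3:**
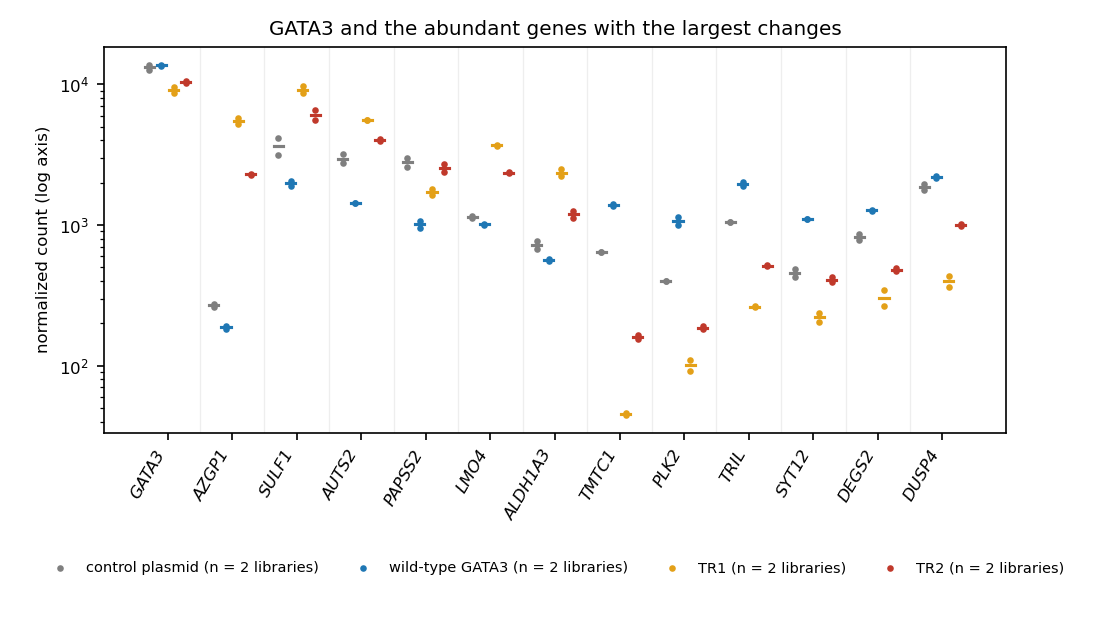
Normalized counts (log axis) in each of the 8 libraries for GATA3 and for the 6 largest rises and 6 largest falls of TR2 against wild type among genes with a mean of at least 1000 in the higher group. Points are single libraries and short lines the means of 2. Apart from GATA3 the genes were chosen so that wild-type and TR2 libraries do not overlap, and for GATA3 the TR2 libraries lie below those of wild type and the control and above those of TR1.

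Gene lists for 33 programs were compared by their counts of called members and the median log2 difference of their tested members, to be read beside 10.4% called higher, 9.6% called lower and a median of 0.01 over all genes. The corresponding shares of all genes were 16.4% higher and 15.4% lower at an unadjusted p under 0.05, 10.7% and 10.2% by limma voom, and 2.75% and 2.49% in the fit of all 8 libraries, in which 18.3% had an unadjusted p under 0.05. All 33 lists had fewer calls without the trend and without the filter, 81 and 57 summed over the lists against 282. For the 15 lists whose median lay within 0.1 of 0, it ranged from -0.19 to 0.12 over the lists and alternatives, and no direction is read from it. For the others an alternative that moved the median by over 1.5 times is named. With members at 0 reads in 1 group set to their bounds, the medians of the lists that hold them were as printed. The lists and the named genes were chosen with earlier results of these libraries known, so the counts describe and do not test the programs.

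**Figure D4:**
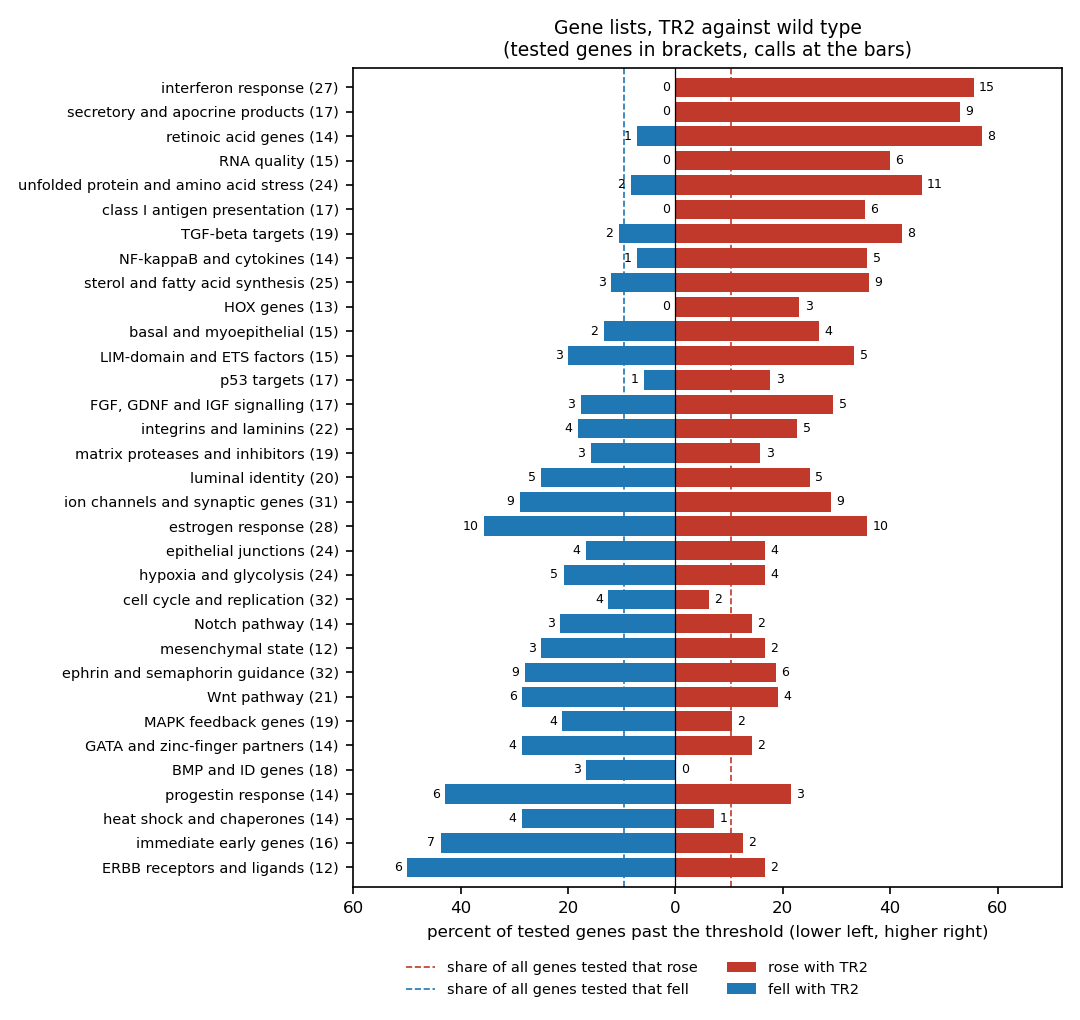
Percent of tested members called higher (bars to the right) and lower (bars to the left) with TR2 against wild type in each of the 33 gene lists, by limma on the 4 libraries, with the number of calls at each bar and the shares of all genes, 10.4% and 9.6%, as dashed lines. Interferon response (15 of 27) and secretory and apocrine products (9 of 17) have higher calls only. So do class I antigen presentation (6 of 17), HOX genes (3 of 13) and RNA quality (6 of 15). BMP and ID genes (3 of 18) have lower calls only, and estrogen response has 10 in each direction.

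Secreted and apocrine products, which include chemokines, lipocalins, S100 proteins and milk and salivary glycoproteins, were higher in 9 of 17 tested members and lower in 0 by limma (9 higher and 0 lower at an unadjusted p under 0.05; 8 higher and 0 lower by limma voom). The median was 0.35, but 0.60 without wild-type replicate 2, 0.61 without TR2 replicate 1 and 0.79 without TR2 replicate 2. In the fit of all 8 libraries 7 were higher, without the trend 5, without the filter 4 of 24, and with 1 library left out 7 or 8. CXCL14, CP, AZGP1 and LCN2, given above, were the largest. Apart from CXCL14, given above by its bound, the called rises ranged from 0.35 to 6.72, that of CP.

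Interferon-stimulated genes, induced in antiviral responses, were higher in 15 of 27 members and lower in 0 by limma (17 higher and 0 lower at an unadjusted p under 0.05; 15 higher and 0 lower by limma voom), with a median of 0.60 (0.38 over the 15 members that pass a filter at 100). The fit of all 8 libraries gave 9, leaving out any 1 library 13 to 15, the fit without the trend 3 and that without the filter 0 (16 higher and 0 lower there at an unadjusted p under 0.05, which 16.9% of the 27713 genes of that fit had). IFI6, an interferon-induced mitochondrial protein, had 161 and 171 normalized counts with wild type and 487 and 403 with TR2, but 302 and 284 in the control, so that wild type was the lowest group. IFIT5, which binds viral RNA ends, had 28.9 and 26.2 against 77.3 and 85.4 (log2 difference 1.53 ± 0.21). IFIT1, of the same family, had 17.3 and 12.6 against 38.7 and 48.3 (1.49 ± 0.28). The TR2 libraries of all 3 genes lay above every wild-type and control library. IFI27 had 2.89 and 11.4 against 18.9 and 16.7, and it was no longer called without wild-type replicate 1 (adjusted p = 0.411), in the fits of all 8 (0.155) and of 6 libraries, without the trend or the filter, or under quantile normalization. IFI6 and IFIT5 were not called without the filter, and IFIT1 not without the filter or the trend. Class I antigen presentation genes were higher in 6 of 17 members and lower in 0 by limma (9 and 0 at an unadjusted p under 0.05; 7 and 0 by limma voom), with a median of 0.17. Of these calls 2 were left without wild-type replicate 1, 3 without replicate 2 and 1 in the fit of all 8. HLA-B, a class I heavy chain, had 5338 and 5122 against 6739 and 6225 normalized counts (log2 difference 0.31 ± 0.05), not called without the trend or the filter, and its reads may be shared with other HLA genes.

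Retinoic acid genes covered synthesis, binding, receptors and breakdown of this vitamin A derivative. Of 14 tested members 8 were higher and 1 lower, with a median of 0.27 (0.13 with the filter at 100), and 5 were higher and 1 lower both in the fit of all 8 libraries and without wild-type replicate 2. On the side of synthesis ALDH1A3 rose, and on that of the receptors RARB rose, as given above. CYP26A1, which degrades retinoic acid and is induced by it, had 1 and 0 reads with wild type and 14 and 18 with TR2, a ratio of 28.0 (95% counting interval 4.67 to 1139). TGM2, tissue transglutaminase, had 5.78 and 2.28 against 18.9 and 18.6 normalized counts. The single fall was that of CRABP1, a cytosolic binding protein of retinoic acid, from 86.7 and 91.3 to 28.8 and 21.3, a log2 difference of -1.80 ± 0.21. ALDH1A3 and RARB held, CYP26A1 and CRABP1 were not called without the filter, and TGM2 not without the filter or the trend.

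**Figure D5:**
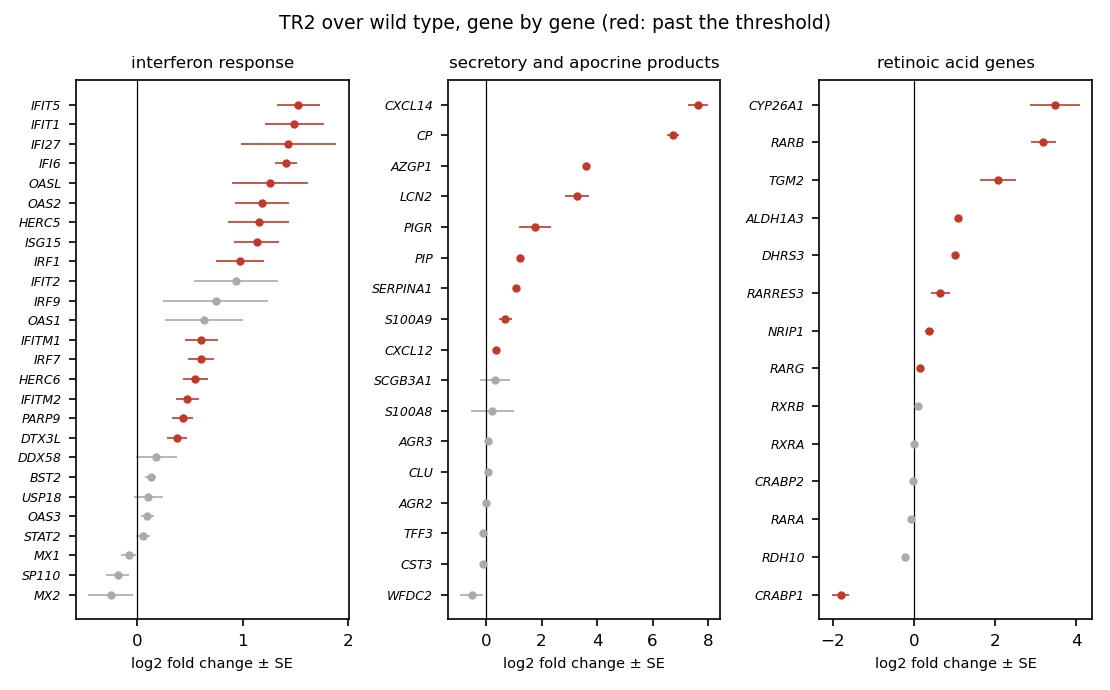
Log2 fold change of TR2 against wild type, with its SE, for tested members of the interferon (26 of 27 shown), secretory (17) and retinoic acid (14) lists, ordered by size within each list. Red points were called by limma on the 4 libraries and grey points were not. The point of CXCL14 is fitted against 0 reads and is no bound, and CRABP1 is the only red point to the left of 0.

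Targets of the estrogen receptor moved in both directions, with 10 of 28 higher and 10 lower and a median of -0.07. In the fit of all 8 libraries there were 6 and 5, without wild-type replicate 1 there were 9 and 6, and without replicate 2 there were 6 and 8. WISP2, a matricellular protein also named CCN5, had 41.4 and 41.1 normalized counts with wild type and 169.9 and 144 with TR2 (log2 difference 1.90 ± 0.17). KCNK5, a potassium leak channel, had 78.0 and 71.9 against 181 and 165. AREG, the EGF receptor ligand amphiregulin, fell from 722 and 716 to 279.6 and 277 (-1.37 ± 0.08). WISP2, KCNK5 and AREG held, and EGR3, described above, was the largest fall on the list. ESR1, the estrogen receptor itself, had 2804 and 2796 with wild type and 3358 and 3872 with TR2, a log2 difference of 0.36 ± 0.06 (adjusted p = 3.66e-05). Its control libraries, at 3437 and 3272, overlapped those of TR2, and it was not called without the trend (0.138) or the filter (0.243).

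PGR, the progesterone receptor and an estrogen target, had 8305 and 8191 normalized counts with wild type and 9169 and 10392 with TR2. Its difference of 0.24 ± 0.05 was called (adjusted p = 0.00184) but not without wild-type replicate 2 (0.0617), in the fit of all 8 (0.745), without the trend or the filter, or after removal of a length and GC trend. Progestin-responsive genes were higher in 3 and lower in 6 of 14 members, with a median of -0.32. The median was -0.16 without wild-type replicate 2, -0.18 and -0.16 without TR2 replicate 1 and 2 in turn and -0.03 without the filter. The counts became 3 and 2 both in the fit of all 8 and without wild-type replicate 2, and 3 and 4 without TR2 replicate 1. S100P, a small calcium-binding protein, rose from 14.5 and 10.3 to 49.4 and 50.1, a call absent only without the filter. TSC22D3, a glucocorticoid-induced leucine zipper protein, had 168 and 191 against 263 and 270.0, and was not called without the filter or the trend.

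Immediate early genes, which respond within minutes to growth factor signals, were higher in 2 and lower in 7 of 16 members, with a median of -0.24 (1 and 3 in the fit of all 8). Without wild-type replicate 2 there were 2 and 4, with a median of -0.07. JUN, a subunit of AP-1, had 513 and 511 normalized counts with wild type, 559 and 524 in the control and 329 and 324 with TR2, a log2 difference of -0.65 ± 0.08, and held. CYR61, a secreted matricellular protein, had 381 and 421 against 285 and 270.0 and BTG2, an antiproliferative factor, 708 and 749 against 979 and 1001. JUN and CYR61 were thus lower and BTG2 higher than in any wild-type or control library, although CYR61 and BTG2 were not called without the trend or the filter.

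Feedback genes of MAP kinase signalling were higher in 2 and lower in 4 of 19 members (0 and 3 in the fit of all 8; 1 and 4 without wild-type replicate 1), with a median of -0.25. The falls included 2 phosphatases of MAP kinases, DUSP4, given above, and DUSP6, from 58.8 and 55.9 to 19.8 and 26.0 (log2 difference -1.30 ± 0.24), a call absent only without the filter. Members of the ERBB family and its ligands and regulators were higher in 2 and lower in 6 of 12, with a median of -0.17, and 0 and 2 in the fit of all 8. The median was -0.08 and -0.25 without TR2 replicate 1 and 2 in turn, -0.35 with the filter at 100 and -0.06 without a filter. Without wild-type replicate 1 there were 1 and 6, without wild-type replicate 2 there were 1 and 5, without TR2 replicate 1 there were 3 and 5 and without TR2 replicate 2 there were 1 and 7. The ligand AREG led the falls. The ligand TGFA had 458 and 480.5 against 327 and 385, which was not called in the fit of all 8 (0.0835) or without the trend or the filter. The receptor gene ERBB4 had 145 and 144 against 91.7 and 105 (adjusted p = 0.00528). Its call was also absent in the fit of all 8 (0.227), without the trend or the filter, and without TR2 replicate 1 (0.0534).

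Receptors and binding proteins of FGF, GDNF and IGF were higher in 5 and lower in 3 of 17 members (4 and 2 in the fit of all 8), with a median of -0.03. FGFR2, a fibroblast growth factor receptor, had 803 and 838 normalized counts with wild type and 1652 and 1822 with TR2, a log2 difference of 1.08 ± 0.07 (adjusted p = 2.29e-13). IGFBP6, which binds insulin-like growth factor II, had 150.3 and 148 against 287 and 269. FGFR2 and IGFBP6 rose while GFRA1, above, fell, and all 3 held. For FGFR2 the control libraries, at 1459 and 1315, were also above those of wild type. The FGF-binding protein gene FGFBP2 had 6.74 and 9.13 against 41.4 and 35.3, not called without the filter.

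Wnt pathway genes were higher in 4 and lower in 6 of 21 members (5 and 4 in the fit of all 8; 4 and 4 without wild-type replicate 2), with a median of -0.05, and the 3 named members that held encode inhibitors or modulators of the pathway. DKK1, a secreted antagonist of the co-receptor LRP6, had 57.8 and 54.8 normalized counts with wild type, 185 and 177 with TR2 against 193 and 180.4 in the control. DACT1, an intracellular modulator, had 0 and 0 reads with wild type and 19 and 21 with TR2, at least 5.79-fold higher. RNF43, a ubiquitin ligase that removes Frizzled receptors, moved the other way, from 261 and 252 to 48.5 and 48.3 (log2 difference -2.38 ± 0.14). The TR2 libraries overlapped those of the control for DKK1, and lay below them for RNF43, whose control libraries had 107 and 80.4.

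In the Notch pathway 2 of 14 members were higher and 3 lower (1 and 2 in the fit of all 8 and without wild-type replicate 2; 1 and 4 without TR2 replicate 2), with a median of -0.05. The ligand DLL1 had 245 and 324 normalized counts with wild type, 813 and 752 in the control and 675 and 713 with TR2, so that wild type was the low group. LFNG, a glycosyltransferase that tunes Notch receptors, fell from 654 and 742 to 394 and 429, and the effector gene HEY2 from 55.9 and 68.5 to 33.3 and 27.8. DLL1 was not called without the filter, and LFNG and HEY2 not without the filter or the trend. BMP and ID genes were lower in 3 of 18 members and higher in 0 by limma (2 higher and 4 lower at an unadjusted p under 0.05; 0 higher and 3 lower by limma voom), with a median of -0.02. Without wild-type replicate 1 this was 1 and 2, without TR2 replicate 1 it was 1 and 3, and without wild-type replicate 2 or TR2 replicate 2 it was 0 and 2. RGMB, a BMP co-receptor, had 381 and 387 against 261 and 267 and held. The ligand BMP4 had 718 and 615 against 461 and 446, a log2 difference of -0.55 ± 0.08, not called without the filter or the trend.

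Guidance genes, among them ephrins, semaphorins, netrins and receptors, which guide axons and also position epithelial cells, were higher in 6 and lower in 9 of 32 members, with a median of -0.09. The counts were 5 and 3 in the fit of all 8, 5 and 6 without wild-type replicate 1 and 6 and 5 without replicate 2. NTN4, a secreted netrin of basement membranes, had 145 and 139 normalized counts with wild type, 228 and 163 in the control and 529 and 581 with TR2, a log2 difference of 1.96 ± 0.10 (adjusted p = 4.15e-15). EPHA4, an ephrin receptor, had 730.3 and 709.9 against 365 and 372, -0.96 ± 0.08. NTN4 and EPHA4 held, NTN4 above and EPHA4 below every wild-type and control library. The netrin receptor gene UNC5C had 22.2 and 16.0 against 1.80 and 2.78, not called without the filter.

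Matrix proteases and their inhibitors were higher in 3 and lower in 3 of 19 members (2 and 3 in the fit of all 8; 2 and 5 without TR2 replicate 2), with a median of -0.00058. MMP16 and ADAMTS15 were the largest falls. MMP11, also named stromelysin 3, had 201 and 234 normalized counts with wild type against 360.5 and 380.5 with TR2, not called without the filter or the trend. Integrins, laminins and related receptors were higher in 5 and lower in 4 of 22 (2 and 0 in the fit of all 8), with a median of 0.04, but 3 and 1 without replicate 1 of wild type or without replicate 2, and 6 and 2 without TR2 replicate 1. LAMB3, a chain of laminin 332, had 291 and 319.6 against 778 and 767, a log2 difference of 1.34 ± 0.08 (adjusted p = 2.92e-13), and held. The fibronectin receptor chain ITGA5 had 549 and 609 with wild type, 1094 and 1087 in the control and 1096 and 1056 with TR2, not called without the filter.

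TGF-beta pathway genes and targets were higher in 8 and lower in 2 of 19 members, with a median of 0.17. The median was 0.04 under quantile normalization, and with the filter at 100 it turned to -0.09, with 5 higher and 3 lower of 15. The fit of all 8 gave 3 and 1, and leaving out wild-type replicate 1 or 2 gave 6 and 1. PMEPA1, an inhibitor of TGF-beta signalling that is induced by it, had 325 and 306 normalized counts with wild type, 645 and 652 with TR2 against 493 and 586 in the control, and held. TGFBI, a secreted matrix protein, had 0 and 2 reads against 17 and 21, a ratio of 16.6 (95% counting interval 4.29 to 142), not called without the filter or the trend.

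Mesenchymal genes, which the title of the study names as a state of interest, were higher in 2 and lower in 3 of 12 tested members (1 and 2 in the fit of all 8), with a median of 0.12 and with 1 and 3 calls without wild-type replicate 1, 1 and 2 without wild-type replicate 2, 1 and 3 without TR2 replicate 1 and 1 and 2 without TR2 replicate 2. The median was 0.04 and 0.24 without replicate 1 and 2 of wild type in turn and 0.19 without the filter, and with the filter at 100 it turned to -0.30, with 0 higher and 2 lower of 4, so no direction is read from it. VIM, the mesenchymal intermediate filament vimentin, was low throughout, with 4 and 8 reads with wild type and 23 and 16 with TR2, or 3.85 and 9.13 against 20.7 and 14.8 normalized counts. Its log2 difference of 1.40 ± 0.42 was called (adjusted p = 0.0176), but not without wild-type replicate 1 (0.198), without TR2 replicate 1 (0.093), in the fit of all 8 (0.0861) or without the trend or the filter. ZEB1, a repressor of epithelial genes, had at most 1 read in these 4 libraries and did not pass the filter. FN1, fibronectin, went down, from 996 and 1060.2 to 572 and 582, a log2 difference of -0.83 ± 0.07 (adjusted p = 3.44e-10), and held. The control libraries had 679 and 609 for FN1, above those of TR2 and below those of wild type.

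Epithelial junction genes were higher in 4 and lower in 4 of 24 members (3 and 2 in the fit of all 8), with a median of 0.05, 8 and 3 without TR2 replicate 1 and 4 and 2 without wild-type replicate 1. CDH1, which encodes E-cadherin, had 8498 and 7771 normalized counts in the control, whose libraries overlapped those of TR2. It had 8728 and 8821 with wild type and 7627 and 8136 with TR2. The difference of -0.16 ± 0.05 was called (adjusted p = 0.0295) but not without wild-type replicate 1 (0.222), wild-type replicate 2 (0.319) or TR2 replicate 1 (0.05), in the fits of all 8 (0.245) and of 6 libraries, without the trend or the filter, or after removal of a length and GC trend. The tight junction genes CLDN1 (345 and 339 against 640.0 and 727) and CLDN7 (1639.7 and 1754 against 2348 and 2278) were higher with TR2, CLDN1 not without the filter and CLDN7 not without the filter or the trend. CLDN1 was highest in the control, at 1451 and 1418. Luminal identity genes were higher in 5 and lower in 5 of 20 members (2 and 3 in the fit of all 8), with a median of 0.01, 3 and 4 without wild-type replicate 1 and 4 and 3 without wild-type replicate 2. ELF3, an epithelial ETS factor, rose from 487 and 479 to 849 and 821 and held. TFAP2A, the transcription factor AP-2 alpha, fell from 3183 and 3279 to 1925 and 2094, not called without the filter. FOXA1, the pioneer factor that acts with GATA3, had 7553 and 8026 against 7469 and 8085, a difference of -0.00 ± 0.05 (adjusted p = 0.977), with overlapping libraries.

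KRT8, a luminal keratin, had 49913 and 49820.0 normalized counts with wild type and 59036 and 54901 with TR2, a difference of 0.19 ± 0.06 (adjusted p = 0.0131) that was not called without wild-type replicate 1 (0.265) or 2 (0.309), under median centring (0.116), in the fit of all 8 (0.157), or without the trend or the filter. Basal and myoepithelial genes were higher in 4 and lower in 2 of 15 (2 and 0 in the fit of all 8), with a median of 0.11, 4 and 0 without TR2 replicate 1 and 4 and 1 without wild-type replicate 2. Leaving out wild-type replicate 1 or 2 gave a median of 0.06 or 0.03, leaving out TR2 replicate 1 or 2 gave 0.06 or 0.03, and removal of a length and GC trend gave 0.06. The rises were led by LAMB3, while KRT5 and KRT14, keratins of basal cells, never exceeded 3 reads. CDH3, P-cadherin, had 1798 and 1832 against 2320.1 and 2416, with 2339.9 and 2289 in the control, not called without the filter or the trend.

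Among LIM-domain and ETS factors 5 of 15 members were higher and 3 lower (3 and 2 in the fit of all 8), with a median of 0.14. EHF, an ETS factor of epithelia related to ELF3, had 177 and 176 normalized counts with wild type, 273 and 218 in the control and 562 and 669 with TR2, a log2 difference of 1.79 ± 0.10 (adjusted p = 2.18e-14). EHF, ELF3 and LMO4 all rose and all held, each with TR2 libraries above every wild-type and control library. Without wild-type replicate 1 the list had 3 and 2 calls, and without TR2 replicate 2 it had 3 and 4. The median was 0.08 without wild-type replicate 2, 0.21 and 0.07 without TR2 replicate 1 and 2 in turn, 0.08 with the filter at 100 and 0.08 after removal of a length and GC trend. Of GATA factors and their partners 2 of 14 were higher and 4 lower (1 and 2 in the fit of all 8), with a median of -0.08, 1 and 4 without wild-type replicate 2 or TR2 replicate 1 and 1 and 6 without TR2 replicate 2. RUNX1, a partner factor in luminal cells, had 471 and 486 against 689 and 756, not called without the filter or the trend. Of HOX genes 3 of 13 were higher and 0 lower by limma (6 and 0 at an unadjusted p under 0.05; 3 and 0 by limma voom), with a median of 0.27 (0.17 without TR2 replicate 1), and 2 higher without wild-type replicate 1. HOXC6 had 203 and 205 against 345 and 379.5, not called without the filter.

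The unfolded protein and amino acid response, driven by ATF4 and related factors, was higher in 11 and lower in 2 of 24 members, with a median of 0.14 (0.07 with the filter at 100). The fit of all 8 gave 6 and 0, the fit without the trend 3 and 0, and leaving out 1 library 9 to 11 higher, with 0 lower when wild-type replicate 1 was left out, 1 when replicate 2 was and 4 when TR2 replicate 1 was. DDIT4, an inhibitor of the growth kinase mTORC1, had 593 and 687 normalized counts with wild type, 717 and 629 in the control and 1143 and 1133 with TR2, not called without the filter. SLC7A11, the cystine transporter, had 37.6 and 30.8 against 84.5 and 63.1, not called in the fit of all 8 (0.153) or without the filter or the trend. Heat shock genes were higher in 1 and lower in 4 of 14 members (0 and 1 in the fit of all 8; 0 and 2 without wild-type replicate 1; 0 and 3 without wild-type replicate 2; 2 and 6 without TR2 replicate 2), with a median of -0.12 (-0.07 without TR2 replicate 2). The largest was HSPB8, a small heat shock protein of chaperone-assisted autophagy, which fell from 607 and 606 with wild type to 106 and 119 with TR2, a log2 difference of -2.42 ± 0.10 (adjusted p = 6.44e-17), and held. The control libraries, at 314 and 357, lay between.

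Sterol and fatty acid synthesis genes were higher in 9 and lower in 3 of 25 members, with a median of 0.12, but 3 and 1 in the fit of all 8, 5 and 2 without wild-type replicate 1 and 4 and 2 without replicate 2. FADS1, a fatty acid desaturase, had 1605 and 1564 normalized counts with wild type and 2475 and 2423 with TR2 and held. ABCG1, a sterol exporter, fell from 278 and 237 to 89.9 and 81.7, a log2 difference of -1.57 ± 0.13, not called without the filter.

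Ion channel and synaptic genes were higher in 9 and lower in 9 of 31 members (8 and 6 in the fit of all 8), with a median of -0.05 and 7 falls and 6 rises of at least 2-fold. RIMS1, CLSTN2, SYT12 and KCNK5 are given above. KCNS3, a modulatory subunit of voltage-gated potassium channels, fell from 242 and 243 to 36.9 and 44.5, a log2 difference of -2.55 ± 0.15 (adjusted p = 2.25e-13), and held. KCNN4, a calcium-activated potassium channel gene, had 0.963 and 4.57 against 18.9 and 16.7, not called without the filter or the trend.

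Of p53 targets 3 of 17 were higher and 1 lower (2 and 0 in the fit of all 8), with a median of 0.05, and 3 and 0 without wild-type replicate 1, 2 and 0 without wild-type replicate 2 and 4 and 2 without TR2 replicate 1. GDF15, a stress-induced cytokine, rose from 18.3 and 19.4 to 73.7 and 70.5 normalized counts, a log2 difference of 1.88 ± 0.23 (adjusted p = 3.88e-07), and held, with 38.7 and 40.2 in the control. NF-kappaB and cytokine genes were higher in 5 and lower in 1 of 14 (4 and 0 in the fit of all 8 and without wild-type replicate 1; 5 and 0 without TR2 replicate 2), with a median of 0.36 (0.24 after removal of a length and GC trend). LIF, an interleukin-6 family cytokine, had 9.63 and 10.3 against 24.3 and 23.2, and ICAM1, an adhesion molecule for leukocytes, 171 and 164 against 256 and 234. In the control LIF had 22.6 and 23.2 and ICAM1 291 and 275, so wild type was the low group for both. LIF was not called without the filter and ICAM1 not without the filter or the trend.

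Hypoxia and glycolysis genes were higher in 4 and lower in 5 of 24 (0 and 1 in the fit of all 8; 1 and 2 without wild-type replicate 1; 3 and 3 without replicate 2), with a median of -0.02. Cell cycle and replication genes were higher in 2 and lower in 4 of 32, with a median of -0.01, and 3 and 7 without TR2 replicate 2. In the fit of all 8 libraries it had 0 calls by limma, with 0 higher and 4 lower at an unadjusted p under 0.05, and by limma voom on the 4 libraries 2 higher and 4 lower. Without wild-type replicate 1 this list had 0 and 1 calls. Without replicate 2 it had 0, with 0 higher and 5 lower at an unadjusted p under 0.05, which 22.3% of all genes had in that fit. Its largest call was E2F2, a transcription factor of the cell cycle, at 654 and 643 against 546 and 528 normalized counts, not called without wild-type replicate 1 (0.0934) or replicate 2 (0.0644), in the fit of all 8, or without the trend or the filter.

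Each GATA3 form was also set against the control plasmid and the truncated forms against each other, with the spread taken from the 4 libraries of each comparison. These comparisons share libraries with TR2 against wild type, so they place the groups and are no separate evidence. TR2 differed from the control in 2115 genes (14.2%), with 1469 higher (9.87%) and 646 lower (4.34%). Wild type differed from the control in 1313 genes (8.82%), with 820 higher (5.51%) and 493 lower (3.31%). The counts depended on the libraries that gave the spread. In the fit of all 8 the first was 137 (0.921%), with 78 higher and 59 lower, and the second was 251 (1.69%). In that fit wild type had 102 genes higher and 149 lower, so the larger share turned from higher to lower. With 1 library left out, the spread came from the pair of the other group alone, so counts from those fits do not compare with the 2115 and the 1313. Log2 differences from the control follow. CP was 2.77 ± 0.13 with TR2 (adjusted p = 3.24e-07) and -3.95 ± 0.32 with wild type (8.77e-05), and GLYATL3 1.48 ± 0.18 and -2.75 ± 0.32. CXCL14 was 3.70 ± 0.20 with TR2 and was called lower with wild type (adjusted p = 0.00192), where it had 0 reads. These 3 genes were therefore above the control with TR2 and below it with wild type. In the other direction, RIMS1 was -1.79 ± 0.23 with TR2 and 2.18 ± 0.13 with wild type, TMTC1 -2.01 ± 0.10 and 1.10 ± 0.06, and PLK2 -1.09 ± 0.10 and 1.43 ± 0.08. Each of these was called, also in the fit of all 8, with the replicate number as a block and with each library left out. Fits without the trend or without the filter were not run against the control.

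MMP16 and EGR3 were called higher with wild type against the control (adjusted p = 6.63e-06 and 8.77e-05) and were not called with TR2 against it (0.175 and 0.507). DKK1 was -1.71 ± 0.15 with wild type (0.000145) and -0.04 ± 0.12 with TR2 (0.855). AZGP1 was 3.09 ± 0.08 with TR2 (3.27e-10), against -0.51 ± 0.11 with wild type (0.0183), a call lost without wild-type replicate 1 (0.121) or 2 (0.142). DUSP4 was -0.90 ± 0.07 with TR2 (2.48e-05), against 0.23 ± 0.06 with wild type (0.0424), a call lost without wild-type replicate 1 (0.22) or 2 (0.293) and in the fit of all 8 (0.35). Of the interferon list 5 of 27 members were higher and 0 lower with TR2 against the control by limma (9 higher and 0 lower at an unadjusted p under 0.05, beside 16.9% and 11.9% of all genes), with a median of 0.15, and 0 higher and 3 lower with wild type against it (0 and 11, beside 14.2% and 10.1%), with a median of -0.26. Secretory products were higher in 8 of 17 and lower in 0 with TR2 by limma (10 higher and 2 lower at an unadjusted p under 0.05), with a median of 0.53, and higher in 3 and lower in 5 with wild type, with a median of -0.06. NF-kappaB and cytokine genes had 0 of 14 higher and 1 lower with TR2 (0 and 2 unadjusted), with a median of -0.01. With wild type they had 0 and 5 (0 and 7), with a median of -0.25. HOX genes had 0 of 13 higher and 0 lower with TR2 (2 and 0), with a median of 0.07. With wild type they had 0 and 2 (0 and 4), with a median of -0.22.

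TR2 differed from TR1 in 59 genes (0.396%), with 11 higher (0.0739%) and 48 lower (0.323%). With 1 TR1 library left out, the spread came from the TR2 pair alone and a gene's own spread had no weight. Counts from those fits do not compare with the 59. The count was 2248 without TR1 replicate 1, 1990 without TR1 replicate 2, 34 without TR2 replicate 2 and 181 (1.22%) in the fit of all 8. The direction rested on the TR1 libraries, with 493 higher and 1755 lower without TR1 replicate 1, 1373 higher and 617 lower without TR1 replicate 2, and 87 and 94 in the fit of all 8, so no direction is read from the split. CXCL14 was -3.43 ± 0.12 with TR2 against TR1 (adjusted p = 0.000702), MXRA5 -2.66 ± 0.21, GLYATL3 -1.93 ± 0.14, AZGP1 -1.26 ± 0.09 and DACT1 -3.13 ± 0.20. For these genes, which rose with TR2 against wild type, TR1 libraries were higher still. These 5 calls, and that of EPHA4, were made in each alternative run for this comparison. EPHA4 was 2.48 ± 0.14 (0.00504), with 67.9 and 62.7 normalized counts with TR1 and 365 and 372 with TR2. MMP16 was at 0 reads with TR2 and 1 read in each library with TR1, so no fold between the truncated forms is given. TMTC1 was 1.79 ± 0.17 (0.016), a call lost without TR2 replicate 2 (0.0535). For PHACTR1 (64.0 and 56.9 normalized counts with TR1, 41.4 and 46.4 with TR2) the difference between the truncated forms was not called (0.781).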

How the data were processed

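Whole-transcriptome RNA of T47D cells was sequenced in 8 libraries of 4 groups, with a strand-specific kit, per the labels' protocols. Per the submitters' processing notes TopHat, HTSeq and hg38 were used, with no version stated, and the annotation and the strand setting of the counting are not given in the sources used here, so reads of overlapping or antisense genes may not be told apart. The deposited unit is log2 of the normalized count plus 1, computed by the authors for 28859 gene symbols. Turned back to the linear scale, 100% of the values of each library were whole multiples of 1 step within 0.01 reads, which gave the read counts. Of the gene symbols, 17 had been turned into dates and are not named, though 12 passed the filter.

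The 14881 genes that reached 10 normalized counts in 2 or more libraries were tested on the deposited log2 values with limma 3.58.1 (lmFit and eBayes with a trend, two-sided) in R 4.3.3. The fit held the 2 wild-type and 2 TR2 libraries, with 2 residual and 25.8 prior degrees of freedom, with Benjamini-Hochberg adjustment over all of these genes. The scripts were tested on simulated data with known changes. Chromosome positions are from GENCODE release 29 (GRCh38, 1-based), and promoter sequences from RefSeq. A fold against 0 reads is a lower bound from a floor of 3 reads per library, and a ratio over 1 to 3 reads has an exact 95% binomial counting interval. Both cover counting error only.

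Named were GATA3, the 12 largest rises and falls with a mean of at least 20 in the higher group, called in the fit of the 4 and of all 8 libraries with libraries not overlapping, and the 6 largest with a mean of at least 1000, leaving out clone-like names. Up to 4 called members of each list with the largest change, and 8 markers whatever their values, were added, which made 150 genes, and part of them is described. Individual values of 2 list members are not reported here. The members, lists and tests were chosen with earlier results of these data known. The alternatives for TR2 against wild type were the fits of all 8 and of 6 libraries, no trend, robust estimation, no filter and a filter at 100. Further ones were median centring, quantile normalization, a pseudocount of 10, limma voom on the recovered reads and removal of a length and GC trend. The last were the replicate number as a block and leaving out each library. The other comparisons had only the fit of all 8, the replicate block and leaving out each library.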

Additional observations from a re-analysis of the deposited data

How the results depend on the processing

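With 2 libraries in each group, a leave-one-out fit of TR2 against wild type had 1 residual degree of freedom and assumed that the lone library varied like the other group. The 2971 calls became 780 in the fit of all 8 libraries (409 higher, 371 lower), 447 without the trend, 764 without the filter, and 1694 to 3164 with 1 library left out, the lowest without wild-type replicate 2. The other alternatives gave 2105 to 3178 calls. The prior degrees of freedom were 25.8 in the reported fit, 4.69 with all 8 libraries and 1.84 without the trend. They were infinite under median centring, with the replicate block and with 1 library left out, except 1337 without TR2 replicate 1. In those fits a gene's own replicate spread had little or no weight, so a call there is a weaker check. Prior values were 24.3 after removal of a length and GC trend and 35.7 with a pseudocount of 10. They were 46.6 by limma voom, 50.7 with robust estimation and 85.2 with the filter at 100. Beside 2 residual degrees of freedom, a gene's own spread had little weight there too, as in the reported fit. For TR2 against TR1 the prior degrees of freedom were 4.41, and infinite without TR1 replicate 1 or 2. For wild type against the control they were 8.70, but 626 and 545 without control replicate 1 and 2 in turn. For TR2 against the control they were 10.2, and infinite without control replicate 1 or 2. Counts with 1 library left out therefore do not compare with those of the full fits. Median centring turned the split from 1542 higher and 1429 lower into 1517 and 1611, and removal of a length and GC trend into 1163 and 1440. The 2115 calls of TR2 against the control became 137 with all 8 libraries and 642 to 2518 with 1 left out. The 1313 calls of wild type against the control became 251 (102 higher, 149 lower) and 287 to 3296. The 59 calls of TR2 against TR1 became 181 and 34 to 2248. MT-CYB, called at 0.23 (adjusted p = 0.00447), reversed under quantile normalization to -3.5527e-15, in effect 0, with an adjusted p of 1, and no other named gene reversed. With the replicate number as a block, the counts were 3178, 1878, 1352 and 45 in the same order. The numbers are not taken to pair the libraries, since the deviations of same-numbered libraries correlated between -0.09 and 0.15 over the pairs of groups and at -0.0011 between wild type and TR2. Depth limits the genes with few reads, for which 0 reads in a library allow a level of up to 3.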
